A study of Mus musculus with 12 samples.

Results

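The contrast described here sets the 3 HiMed libraries against the 3 MedLow libraries, the pair of middle bins of Sox2 reporter brightness, out of 12 libraries in 4 bins (Low, MedLow, HiMed and High). All mice were adults of 11 to 12 weeks with the genotype Sox2GFP, and the labels distinguish the bins only by the brightness of the reporter. How the reporter allele was built is not given in the sources used here. Epithelium of the circumvallate papilla (the single large papilla of the posterior tongue, whose trench walls hold taste buds) was freed with collagenase and dispase, dissociated with elastase added and sorted, and cells without GFP were not kept. Each replicate pooled 7 to 13 mice, so spread and p-values refer to pools and not to single animals. RNA with poly(A) tails was sequenced. Libraries were taken by their labelled bin. That choice, and the choice of the gene lists, were made with earlier results of these data known.

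Sox2 is a transcription factor of the high mobility group family that lingual progenitors and taste buds use. Progenitors in the basal layer express Krt5 and Krt14 and give rise both to taste cells and to the stratified keratinocytes between the buds. Taste cells are replaced throughout life, through precursors that express Shh, and mature into glia-like type I cells, type II cells that detect sweet, umami or bitter, and type III cells that detect sour. Hedgehog and Wnt signals are known to sustain this renewal.

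Library totals were 39.0 to 42.5 M counts in MedLow and 36.9 to 55.6 M in HiMed. Levels are given as CPM, counts scaled by TMM to a common library total, which is not adjusted for gene length, and ± stands for the SD over n = 3 libraries. A gene was called at an adjusted p below 0.05 in edgeR's quasi-likelihood test, which used all 12 libraries and Benjamini-Hochberg adjustment over 17432 genes, and every adjusted p below comes from that test unless another is named. That test had no term for the replicate number, although libraries that share a number count as paired. Some genes that it did not call were called when a replicate block was added. HiMed replicate 1 stood apart: 16527 symbols had counts in it, against 18809 to 19379 in the other 5 libraries, and 952 symbols (median 0.418 CPM in the other 5) were at 0 in it alone. Results that changed without it are given both ways, and where several libraries were left out in turn each is given by its bin and replicate number, as in HiMed 1. The other bins enter as context and, in the last comparison, as outer steps.

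Sox2 rose from MedLow to HiMed, which is what the sort selected on. It had 97.1, 99.3 and 97.4 CPM in MedLow and 168, 173 and 173 in HiMed (log2 fold change 0.81, SE 0.07, adjusted p = 1.4e-05). The transcript of the reporter, named eGFP in the files, had 136, 145 and 154 CPM in MedLow and 255, 224 and 259 in HiMed (log2 fold change 0.76, SE 0.08, adjusted p = 5.0e-05). All 3 HiMed libraries lay above all 3 MedLow libraries for both. The ratio of eGFP to Sox2 counts overlapped between the bins, at 1.4, 1.45 and 1.58 in MedLow and 1.52, 1.30 and 1.5 in HiMed.

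Of the 17432 genes tested, 1286 (7.38%) were higher in HiMed and 1066 (6.12%) lower, together 2352 (13.5%), and the median log2 fold change over all genes was -0.02. Of these, 601 (3.45%) were higher and 271 (1.55%) lower by at least 2-fold. The 2 sets of libraries did not overlap for 2759 genes higher (15.8%) and 2964 lower (17%) in HiMed. Counts of called or non-overlapping list members below are to be read beside these shares of all genes. Of the called genes, 54.7% were higher, a share that moved to 65.7% with library size as the only scaling (1526 higher, 798 lower), to 72.3% with limma on TPM + 1 (1103 and 423) and to 72.4% on TPM + 0.1 (1095 and 417). Without HiMed replicate 1, 1053 genes were higher and 729 lower, of which 958 and 675 were among the 1286 and 1066. Without MedLow replicate 2 the counts were 778 and 592, without HiMed replicate 3 they were 906 and 676, and without MedLow replicate 1 they were 943 and 641. In bulk libraries, a gene can be lower because fewer cells of a type were present or because each cell held less RNA, and these cannot be told apart.

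**Figure D1:**
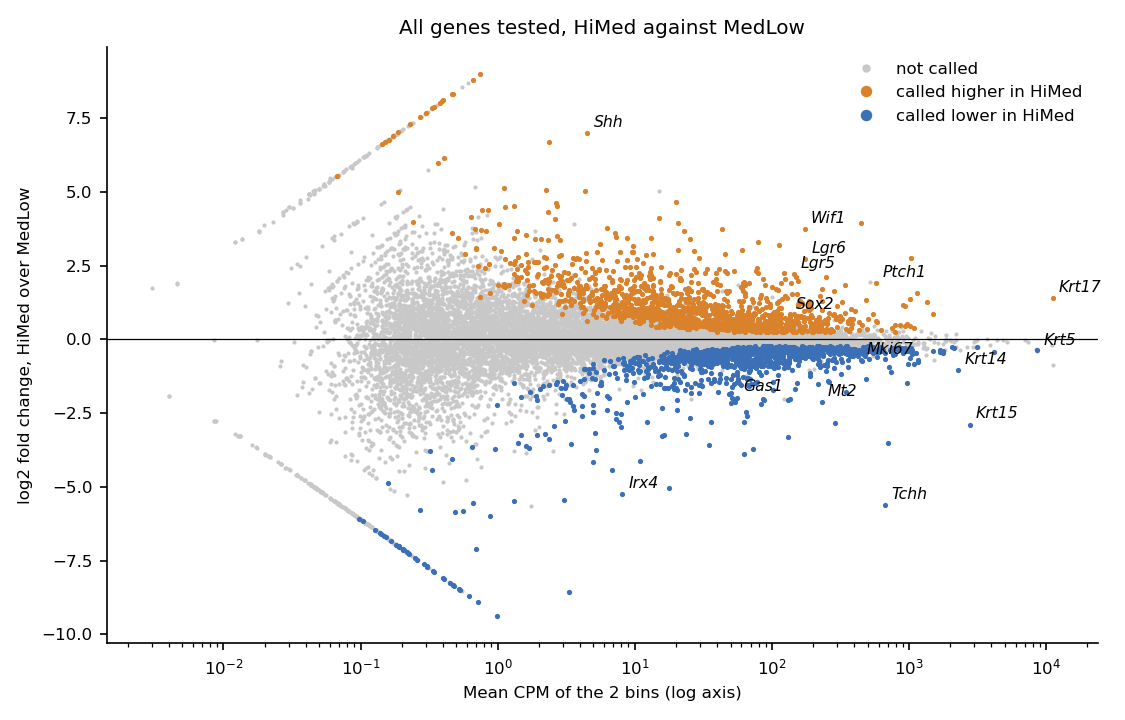
Log2 fold change of HiMed over MedLow (vertical axis) against the mean CPM of the pair of bins (horizontal, log axis) for the 17432 genes tested, 1 point a gene. Orange points are the 1286 genes called higher in HiMed, blue points the 1066 called lower, and grey points were not called. The diagonal rims at low CPM are genes with no count in one of the bins.

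Fold increases are ranked here among called genes with a mean of at least 10 CPM in the higher bin and no overlap between bins, and lower-expressed genes with larger folds follow in their lists. Fbn2, a fibrillin of extracellular microfibrils, had 1.59, 1.52 and 1.47 CPM in MedLow and 47.4, 28.3 and 39.3 in HiMed (log2 fold change 4.64, SE 0.26, adjusted p = 3.8e-07). Every HiMed library exceeded every MedLow library many times over. A2m, the protease inhibitor alpha-2-macroglobulin, had 86.8, 24.3 and 54.6 CPM in MedLow and 1092, 656 and 787 in HiMed (log2 fold change 3.94, SE 0.44, adjusted p = 5.8e-05). Wif1, a secreted protein that binds and blocks Wnt ligands, had 28.5, 19.6 and 23.8 CPM in MedLow and 403, 269 and 296 in HiMed (log2 fold change 3.75, SE 0.26, adjusted p = 1.8e-06). Both were higher in all 3 HiMed libraries without overlap. The carbonic anhydrase gene Car2 rose from 1.63 to 28.6 CPM (log2 fold change 4.13) and Mme, the membrane peptidase neprilysin, from 6.11 to 81.2 CPM (3.74). The blood group glycosyltransferase gene Abo rose by 3.77, the lipid transporter gene Abca13 by 3.95 and Enpp2, which encodes the lysophosphatidic acid producing enzyme autotaxin, by 3.61 on the log2 scale. Without MedLow replicate 3 the value for Abca13 was 4.64, and without MedLow replicate 1 that for Enpp2 was 4.30, both still called. The signalling scaffold gene Cnksr2 and the phospholipase gene Plce1 completed the 10 largest under that rule, with log2 fold changes of 3.67 and 3.46. Adjusted p was at most 4.1e-04 for these 7 genes.

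Tchh, trichohyalin, which hardens the inner root sheath of hair and the filiform papilla, led the decreases ranked by the same rule. It had 458, 2341 and 1119.6 CPM in MedLow and 23, 29.8 and 26.5 in HiMed (log2 fold change -5.63, SE 0.53, adjusted p = 1.8e-05), and the log2 fold change was -4.90 without MedLow replicate 2. MedLow replicates varied widely for this gene, yet the lowest of them was far above the highest HiMed library. Irx4, an Iroquois homeobox gene, had 16.7, 18.1 and 12.7 CPM in MedLow and 0.514, 0.246 and 0.453 in HiMed (log2 fold change -5.26, SE 0.24, adjusted p = 3.8e-07). Peg3, an imprinted zinc finger gene, had 35.7, 41.7 and 25.8 CPM in MedLow and 1.14, 1.83 and 0.272 in HiMed (log2 fold change -5.06, SE 0.44, adjusted p = 8.9e-06; -5.65 without HiMed replicate 2). HiMed levels of both were low in every library. The imprinted noncoding RNA H19 fell from 239 to 23.9 CPM (-3.33). Flg, encoding the cornified protein filaggrin, fell from 136 to 10.3 CPM (-3.72; adjusted p = 0.0708 by limma on TPM + 0.1), and the keratin gene Krt24 from 117 to 7.97 CPM (-3.90; -4.63 without HiMed replicate 2). The oral keratin gene Krt76 fell from 1290.4 to 114 CPM (log2 fold change -3.51, SE 0.87, adjusted p = 0.0168). That call did not hold without single libraries, with an adjusted p of 0.0600 to 0.0736 without HiMed 1, HiMed 3 or MedLow 2, 0.0782 with robust estimation and 0.134 by limma on TPM + 0.1, and its log2 fold change was -4.16 without HiMed 2. Col23a1, a transmembrane collagen gene, fell by 4.42 on the log2 scale (-5.04 without HiMed replicate 2) and the metalloprotease gene Adamts15 fell by 3.58.

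**Figure D2:**
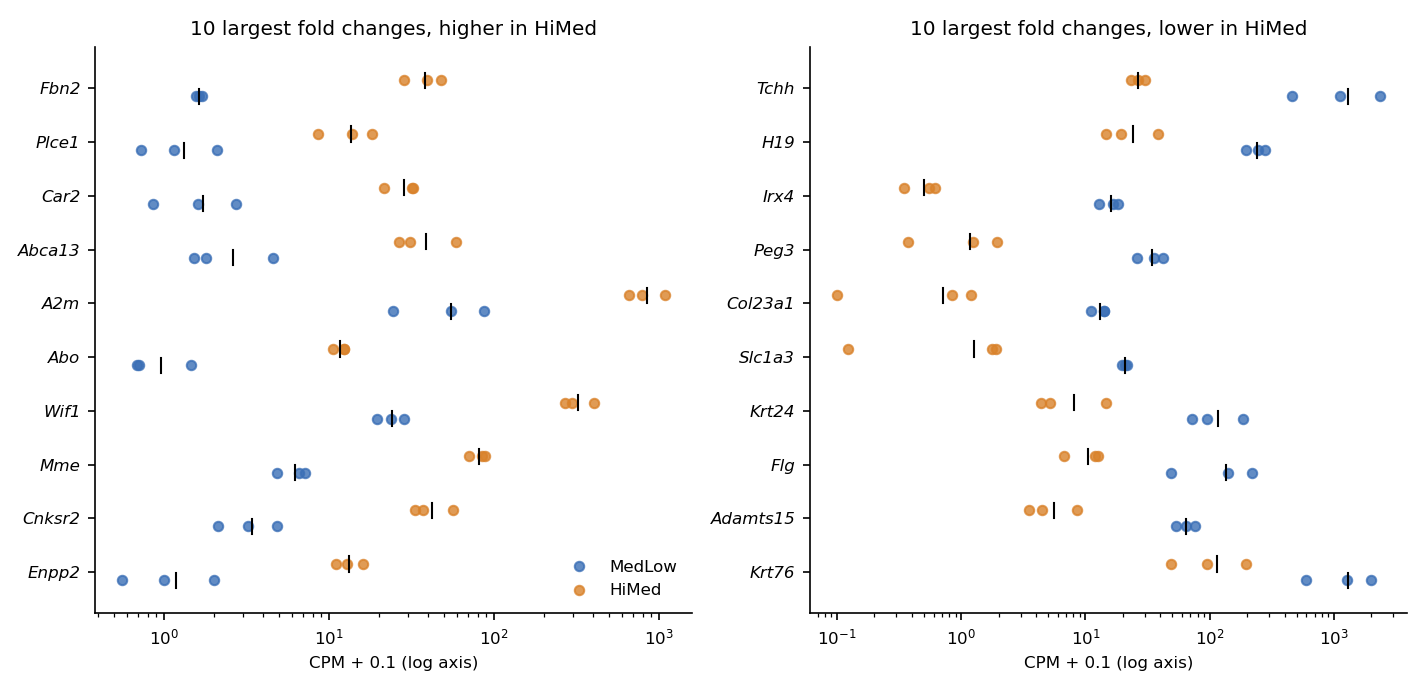
CPM + 0.1 per library (log axis) for the 10 genes with the largest fold change in each direction among called genes with a mean of at least 10 CPM in the higher bin, MedLow in blue and HiMed in orange, with a bar at each bin's mean. The HiMed and MedLow libraries do not overlap for any of the 20 genes, which the rule for choosing them also required.

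By difference in CPM, keratins led in both directions. Krt17, a keratin of hair follicle and activated epithelium, had 5616, 5582 and 7247 CPM in MedLow and 15798, 15994 and 16789.5 in HiMed (log2 fold change 1.4, SE 0.13, adjusted p = 2.2e-05). Krt75, a keratin of the companion layer of the hair follicle, had 269, 212 and 316 CPM in MedLow and 1911, 1642 and 1914 in HiMed (log2 fold change 2.78, SE 0.17, adjusted p = 7.3e-07). Anxa1, a phospholipid binding annexin, rose from 804 to 1919 CPM (1.25). Against these, Krt15, a keratin of basal cells, had 4789, 5388 and 4479 CPM in MedLow and 450.2, 926 and 601 in HiMed (log2 fold change -2.89, SE 0.25, adjusted p = 7.9e-06). Krt14, the partner of Krt5 in basal keratinocytes, had 2759.6, 3046 and 3445 CPM in MedLow and 1297, 1502 and 1678 in HiMed (log2 fold change -1.05, SE 0.13, adjusted p = 1.1e-04). For each of these genes the bins did not overlap. The translation elongation factor genes Eef1a1 and Eef2 fell by 0.34 and 0.42 (adjusted p = 0.00342 and 0.00119). Eef1a1 was not called by limma on TPM + 1 or TPM + 0.1 (adjusted p up to 0.306). Reads shared by close relatives such as Krt14, Krt16 and Krt17, Krt6a and Krt6b, Hspa1a and Hspa1b, and Eef1a1 and its processed copies could have been divided between them in counting, so single members are less certain.

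Most listed genes of taste cell commitment were higher in HiMed. Of 15 taste lineage factors tested, 10 rose and 1 fell, with a median log2 fold change of 1.04, beside 7.38% and 6.12% of all genes. The list was chosen with earlier results of these data known, so this excess is not independent support. Shh, the ligand made by taste precursor cells, had 0.206, 0 and 0 CPM in MedLow and 15.1, 2.30 and 9.56 in HiMed (log2 fold change 7.00, SE 0.85, adjusted p = 1.2e-04). Counts in MedLow came to 8 over 3 libraries, so its fold change is imprecise: it was 11.60 without MedLow replicate 1 and 6.40 without MedLow replicate 2. Etv1, an ETS factor, had 20.3, 15.8 and 16.4 CPM in MedLow and 108, 76.2 and 80.3 in HiMed (log2 fold change 2.33, SE 0.16, adjusted p = 1.4e-06), and Hes6, a factor that promotes neuronal and taste differentiation, had 44.7, 35.3 and 47.0 CPM in MedLow and 227, 184 and 193 in HiMed (log2 fold change 2.25, SE 0.12, adjusted p = 3.2e-07). For both, every HiMed library lay well above every MedLow library. The forkhead gene Foxa2 rose from 23.7 to 73.2 CPM (1.63) while its relative Foxa1 fell from 138 to 70.5 CPM (-0.97). Prox1, a homeobox factor of taste precursors, rose from 9.17 to 24 CPM (log2 fold change 1.39, SE 0.31, adjusted p = 0.00913). Eya1, a transcriptional coactivator of sensory placodes, rose by 1.04 and Runx1 by 1.11. Eya1 was not called by limma on TPM + 1 or TPM + 0.1 (adjusted p up to 0.0744). Insm1 rose by 0.81 (adjusted p = 0.0280, and 0.0694 to 0.130 without HiMed 1, HiMed 3, MedLow 1 or MedLow 2, and up to 0.0698 by limma on TPM). Pou2f3, the type II cell factor, had 19.2, 16.9 and 19.7 CPM in MedLow and 27.8, 24.5 and 20 in HiMed and was not called (log2 fold change 0.37, SE 0.16, adjusted p = 0.146).

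Simple keratins and junction genes of the taste bud moved alike: 8 of 9 rose, beside 7.38% of all genes. The other, Cldn8, was not called (adjusted p = 0.693). Their median log2 fold change was 1.03, and without HiMed replicate 3 or MedLow replicate 2 only 5 were called. The list was chosen with earlier results of these data known, so its count is not independent support. Krt8, the type II keratin of taste cells, had 124, 86.1 and 162 CPM in MedLow and 259, 226 and 280.0 in HiMed (log2 fold change 1.04, SE 0.24, adjusted p = 0.0104). Its partner Krt18 had 99.6, 76.7 and 110.3 CPM in MedLow and 222, 195 and 227 in HiMed (log2 fold change 1.17, SE 0.18, adjusted p = 7.1e-04). Cldn7, a tight junction protein, had 11.5, 7.31 and 18.5 CPM in MedLow and 34.3, 34.4 and 48.7 in HiMed (log2 fold change 1.65, SE 0.29, adjusted p = 0.00169). HiMed replicate 3 was the highest library in all 3 genes, and no MedLow library reached any HiMed library. The smaller changes were Epcam, an epithelial adhesion molecule (0.67), and Cldn4 (0.65, adjusted p = 0.0345, and 0.105 to 0.161 without HiMed 3, MedLow 1 or MedLow 2, and 0.0610 with robust estimation).

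Most markers of mature taste cells did not pass the test, as was true of most genes. Of 16 type II genes 1 rose and 1 fell (median 0.46), so 12.5% were called, close to the 13.5% of all genes. Of 11 type III genes tested 4 rose (median 0.66), beside 7.38% of all genes. Between 1 and 4 of them rose when single libraries were left out. Trpm5, the cation channel of type II transduction, had 72.5, 25.4 and 64.4 CPM in MedLow and 68.1, 54.3 and 44.0 in HiMed (log2 fold change 0.04, SE 0.35, adjusted p = 0.972). The bins overlapped. Gnat3, the taste G protein gustducin, had means of 39.5 to 43.9 CPM (adjusted p = 0.858) and the phospholipase gene Plcb2 of 123 to 241 CPM (adjusted p = 0.111). Fxyd6, a regulator of the sodium pump, rose from 25.6 to 56.0 CPM (adjusted p = 0.0169, and without HiMed replicate 1 its adjusted p was 0.0615). The bitter receptor gene Tas2r105 fell from 2.61 to 0.227 CPM (adjusted p = 0.0289, and 0.0520 to 0.0819 without HiMed 3, Low 1, Low 3, MedLow 1, MedLow 2 or MedLow 3). Among type III genes Otop1, the proton channel for sour, rose by 1.17 (adjusted p = 0.0442, and 0.0525 to 0.167 without HiMed 1, HiMed 3, High 1, Low 1, MedLow 1 or MedLow 2), Pkd2l1, a channel subunit of the same cells, by 0.82 (0.0212, and 0.0512 to 0.0915 without HiMed 1, HiMed 3, MedLow 1 or MedLow 2), and the calcium channel gene Cacna1a by 0.90 (0.0269, and 0.0654 to 0.106 without HiMed 2, HiMed 3, MedLow 1 or MedLow 2). Otop1 was not called by limma on TPM + 1 (adjusted p = 0.0613) or with robust estimation (0.102), nor Cacna1a by limma on TPM (up to 0.109).

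The 4 type I genes went apart. Slc1a3, a glutamate transporter, had 20.6, 21.7 and 19.5 CPM in MedLow and 0.0234, 1.81 and 1.68 in HiMed (log2 fold change -4.13, SE 0.66, adjusted p = 9.2e-04). Entpd2, the ecto-ATPase that defines type I cells, had 14.9, 16.2 and 13.6 CPM in MedLow and 10.9, 13.3 and 12.4 in HiMed and was not called (log2 fold change -0.29, SE 0.19, adjusted p = 0.396). Kcnj1, a potassium channel of these cells, rose from 0.0614 to 2.17 CPM (log2 fold change 5.12, SE 0.82, adjusted p = 9.9e-04), with a log2 fold change of 4.53 without MedLow replicate 2 and 9.54 without MedLow replicate 3. Oxtr, the oxytocin receptor, had no count in MedLow and 0.444, 0.438 and 1.94 CPM in HiMed (adjusted p = 0.00367), at least 37.0-fold higher when a bin without counts is set to 3 counts in all, and was not called by limma on TPM + 1 (adjusted p = 0.216). Type I markers thus did not move as a group, with 2 rising, 1 falling and Entpd2 not called.

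Progenitor markers moved in both directions. Of 12 tested, 5 rose, 2 fell and 5 were not called (median 0.11, and -0.03 without HiMed replicate 1), and 3 rose without MedLow replicate 2. Lgr6, an R-spondin receptor of tongue progenitors, had 51.1, 36.8 and 49.9 CPM in MedLow and 356, 249 and 306 in HiMed (log2 fold change 2.73, SE 0.16, adjusted p = 3.8e-07). Lgr5, its relative and a marker of circumvallate stem cells, had 61.3, 41.4 and 52.8 CPM in MedLow and 304, 217 and 197 in HiMed (log2 fold change 2.21, SE 0.21, adjusted p = 1.7e-05). Both receptors were higher in all HiMed libraries, with no overlap. Pdpn, the membrane glycoprotein podoplanin, rose from 30.2 to 93.5 CPM (1.63). The hyaluronan receptor gene Cd44 rose by 0.39 (adjusted p = 0.0102, and without MedLow replicate 2 its adjusted p was 0.0558) and Lrig1, a brake on growth factor receptors, by 0.50 (adjusted p = 0.0164, and 0.0650 to 0.0832 without HiMed 1, MedLow 2 or MedLow 3). Krt15 and Krt14, given above, were the 2 that fell. Krt5, the basal keratin that pairs with Krt14, had 9277, 10148 and 10085 CPM in MedLow and 7301, 7574 and 7548 in HiMed (log2 fold change -0.40, SE 0.12, adjusted p = 0.0501), and it was called with a replicate block (0.0325) and by DESeq2 (0.0138). Trp63, the master factor of stratified epithelium, had 942, 882 and 919 CPM in MedLow and 938, 884 and 938 in HiMed (log2 fold change 0.01, SE 0.14, adjusted p = 0.983), and Sox9 was not called either (adjusted p = 0.357). Epcam, which marks epithelium, was present in all 6 libraries, between 156 and 293 CPM.

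**Figure D3:**
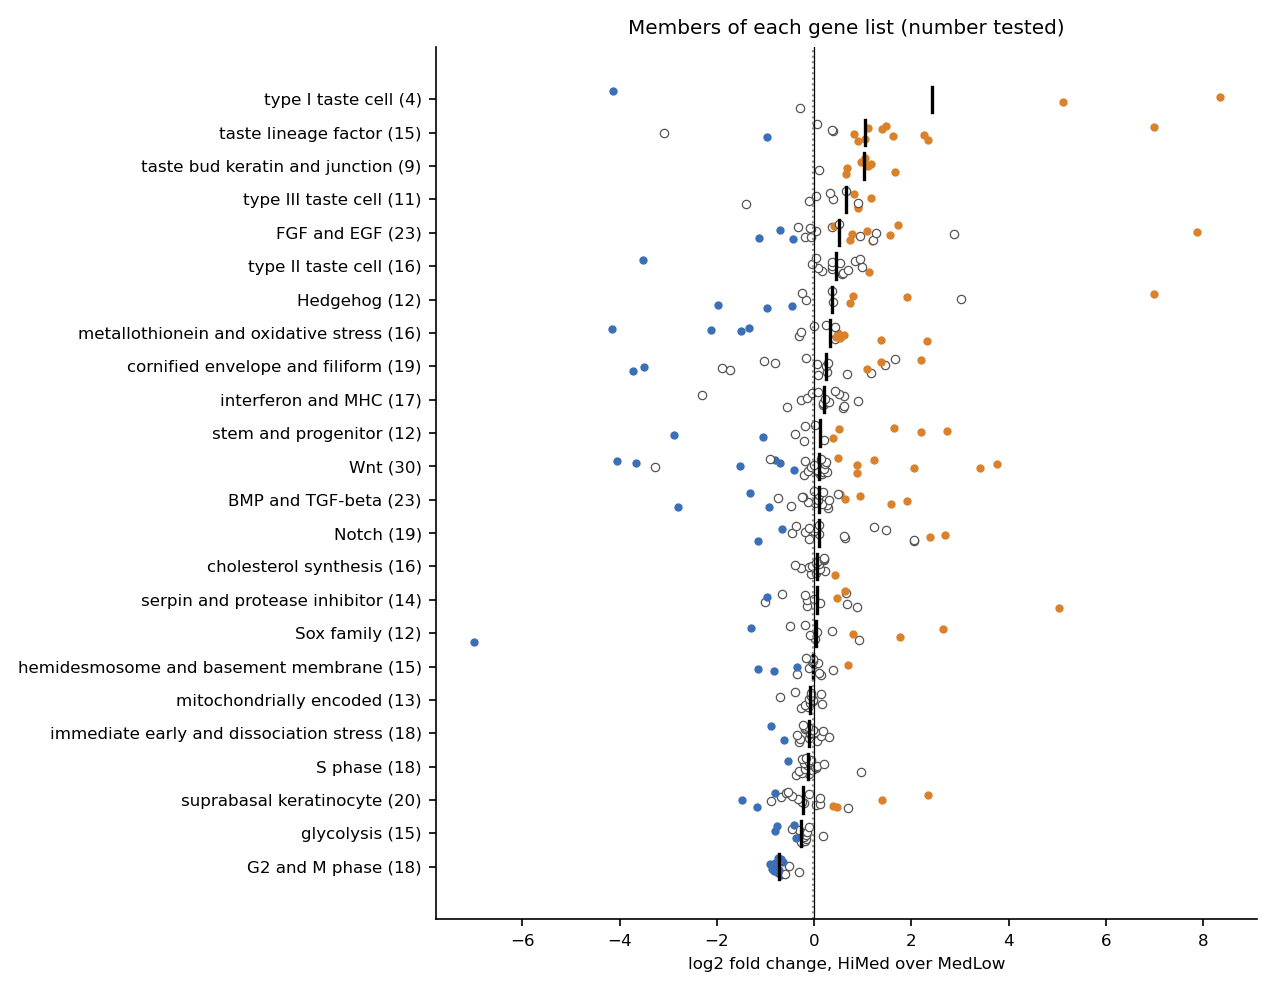
Log2 fold change of HiMed over MedLow for the tested members of 24 gene lists, 1 point a gene, with the number tested in parentheses. Orange members were called higher, blue members lower and open ones were not called. The bar is each list's median and the dotted line the median of all genes, -0.02. Taste lineage factors (median 1.04) and taste bud keratins (1.03) lie to the right, and G2 and M phase genes (-0.73) to the left.

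Mitotic genes fell in HiMed while genes of DNA replication mostly did not pass the test. Of 18 genes of the G2 and M phases, 14 fell, against 6.12% of all genes, with a median log2 fold change of -0.73. All 18 had non-overlapping libraries, lower in HiMed, as did 17% of all genes. This list was also chosen with earlier results of these data known, so its counts are not independent support. Fewer were called without HiMed replicate 1 or MedLow replicate 2, namely 9 in each case, and 6 with limma on TPM + 1, whereas the replicate block and DESeq2 each called 17. Mki67, a marker of cycling cells, had 522, 601 and 536 CPM in MedLow and 335, 328 and 347 in HiMed (log2 fold change -0.72, SE 0.11, adjusted p = 8.6e-04). Ccnb2, a cyclin that drives entry into mitosis, had 42.6, 41.6 and 39.3 CPM in MedLow and 21.5, 21.6 and 26.0 in HiMed (log2 fold change -0.83, SE 0.12, adjusted p = 3.7e-04). Cenpe, a kinetochore motor, had 94.1, 107 and 101 CPM in MedLow and 53.1, 54.6 and 60.7 in HiMed (log2 fold change -0.85, SE 0.10, adjusted p = 1.0e-04). Each HiMed library lay below each MedLow library. Cenpf, another kinetochore protein, fell by 0.91 and Ccnb1, the partner of Cdk1, fell by 0.87 on the log2 scale. For Cenpf, limma on TPM + 1 or TPM + 0.1 gave adjusted p values up to 0.217. The 4 not called were Cdk1, Plk1, Aurkb and Bub1, with log2 fold changes from -0.70 to -0.32. With the replicate block Cdk1, Plk1 and Aurkb were called as well (adjusted p = 0.0420, 0.0471 and 0.0204).

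Of 18 S phase genes, Pola1, the catalytic subunit of the priming polymerase, fell (log2 fold change -0.53, SE 0.13, adjusted p = 0.0141; without MedLow replicate 2 its adjusted p was 0.0817, and limma on TPM + 1 gave -0.17 with an adjusted p of 0.683) and the other 17 were not called. None was called higher by edgeR or DESeq2, and 1 reached an unadjusted p below 0.05 in that direction. Mcm2, part of the replicative helicase, had 33.4, 46.7 and 53.9 CPM in MedLow and 45.0, 47.0 and 46.3 in HiMed (log2 fold change 0.05, SE 0.16, adjusted p = 0.914), and Pcna, the sliding clamp, had 69.2, 73.7 and 76.4 CPM in MedLow and 65.0, 70.8 and 69.2 in HiMed (log2 fold change -0.10, SE 0.08, adjusted p = 0.508). The S phase median was -0.13, which became 0.06 with limma on TPM + 1, while the median of the G2 and M phase list stayed between -0.79 and -0.60 under the alternatives run. The difference between the lists was not tested.

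**Figure D4:**
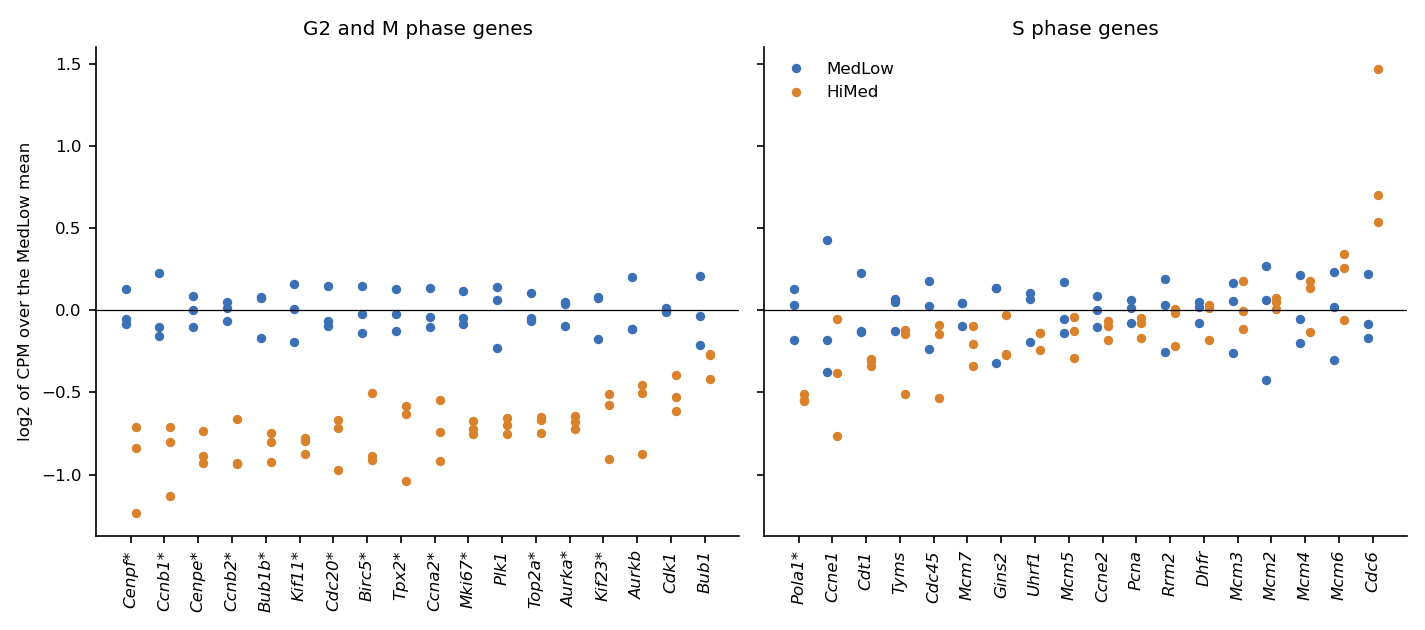
Log2 ratio of each library's CPM to the gene's MedLow mean for G2 and M phase genes (left) and S phase genes (right), MedLow in blue and HiMed in orange, with an asterisk on genes called in the contrast. On the left every HiMed point lies below every MedLow point of its gene. On the right the bins overlap for most genes.

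Promoters of mitotic genes carry known elements, and the 4 G2 and M phase genes with the largest decreases are shown as the 250 bases before the start of transcription, since their letters can be read against the change. Sequences are from the RefSeq promoter table of build GRCm38.p6, not the build mm39 named in the submitters' processing notes, and run 5′ to 3′ on the gene's strand. Capitals mark CCAAT or its reverse complement, the box bound by the factor NF-Y, and TTTGAA or its reverse complement, the core of the cell cycle homology region. Cenpf lies at chr1:189688087-189688336 (minus strand), Ccnb1 at chr13:100786487-100786736 (minus strand), Cenpe at chr3:135212313-135212562 (plus strand) and Ccnb2 at chr9:70421555-70421804 (minus strand).
Cenpf: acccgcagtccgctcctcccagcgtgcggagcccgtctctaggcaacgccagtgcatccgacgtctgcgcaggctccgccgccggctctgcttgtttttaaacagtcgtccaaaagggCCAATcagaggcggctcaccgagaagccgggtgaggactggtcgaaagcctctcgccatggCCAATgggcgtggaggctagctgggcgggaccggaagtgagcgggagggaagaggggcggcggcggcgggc
Ccnb1: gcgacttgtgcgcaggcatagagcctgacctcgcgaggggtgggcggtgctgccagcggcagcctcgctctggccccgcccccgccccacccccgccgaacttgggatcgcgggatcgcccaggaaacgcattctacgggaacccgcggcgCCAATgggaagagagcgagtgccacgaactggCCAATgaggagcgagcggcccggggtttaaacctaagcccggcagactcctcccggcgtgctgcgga
Cenpe: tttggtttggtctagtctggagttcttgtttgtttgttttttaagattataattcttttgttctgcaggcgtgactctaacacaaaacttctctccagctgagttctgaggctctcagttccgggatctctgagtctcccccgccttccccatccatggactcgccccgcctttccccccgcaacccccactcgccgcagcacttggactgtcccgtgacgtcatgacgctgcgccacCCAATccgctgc
Ccnb2: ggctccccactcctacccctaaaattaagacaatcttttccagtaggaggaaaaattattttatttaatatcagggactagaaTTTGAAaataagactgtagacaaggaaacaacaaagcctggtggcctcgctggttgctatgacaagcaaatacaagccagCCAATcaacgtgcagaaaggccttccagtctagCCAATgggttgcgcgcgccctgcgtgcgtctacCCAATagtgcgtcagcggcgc

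The Ccnb2 window held 3 CCAAT boxes and 1 TTTGAA, Cenpf and Ccnb1 held 2 CCAAT boxes each and Cenpe 1. Across the list, 14 of the 15 genes with a promoter entry (93.3%) had at least 1 CCAAT on either strand in this window, against 40.2% of 12100 tested genes with an entry, 37.3% of genes called higher and 40.0% of genes called lower. S phase genes, most of which were not called, had it in 10 of 14 (71.4%). TTTGAA was in 6 of the 15 (40.0%), in 2 of 14 S phase genes (14.3%) and in 13.5% of all. A match describes letters only.

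In the Hedgehog pathway the ligand Shh binds Ptch1 and so frees Smo to activate Gli factors, and Ptch1, Gli1 and Hhip are also induced by the signal, whereas the coreceptors Gas1, Boc and Cdon are repressed by it. Of 12 genes tested, 4 rose and 3 fell (median 0.38). Shh, with its values above, was the ligand. Ptch1 had 237, 223 and 268 CPM in MedLow and 957, 870.3 and 900.2 in HiMed (log2 fold change 1.90, SE 0.16, adjusted p = 5.9e-06). Gli1 had 180.1, 160.0 and 158 CPM in MedLow and 306, 276 and 254 in HiMed (log2 fold change 0.75, SE 0.16, adjusted p = 0.00716). In both genes the bins were fully separate. The 3 coreceptors fell: Gas1 had 89.5, 88.3 and 90.9 CPM in MedLow and 15.2, 30.1 and 23.2 in HiMed (log2 fold change -1.98, SE 0.22, adjusted p = 6.2e-05). Boc had 82.8, 82.3 and 79.0 CPM in MedLow and 38.9, 45.1 and 40.9 in HiMed (log2 fold change -0.97, SE 0.12, adjusted p = 1.2e-04). Every HiMed library was below every MedLow library in these 2 genes. Cdon fell by 0.46 on the log2 scale (adjusted p = 0.0140, and 0.0562 to 0.0603 without HiMed 3 or MedLow 1), and limma on TPM + 1 gave -0.19 with an adjusted p of 0.763. Hhip, a decoy receptor, had 0.720, 0 and 0.632 CPM in MedLow and 5.30, 2.54 and 3.11 in HiMed and was not called (adjusted p = 0.0706; 0.00646 by DESeq2), nor were Smo, Gli2, Gli3 and Sufu.

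Wnt ligands bind Frizzled and Lrp receptors to stabilise beta-catenin, and extracellular antagonists and feedback genes limit the signal. Of 30 Wnt genes tested, 7 rose and 6 fell (median 0.10), and leaving out single libraries gave 7 rising and 4 to 6 falling. Among ligands, Wnt5a, which acts mostly without beta-catenin, had 48.1, 44.3 and 53.2 CPM in MedLow and 119, 101 and 119 in HiMed (log2 fold change 1.22, SE 0.11, adjusted p = 1.1e-05). Wnt4 had 308, 349 and 308 CPM in MedLow and 163, 219.7 and 165 in HiMed (log2 fold change -0.82, SE 0.16, adjusted p = 0.00424). The first was higher and the second lower in HiMed without overlap. Wnt10a fell by 0.71. Wnt3 and Wnt10b, whose MedLow means were only 0.868 and 1.21 CPM, were also lower. Their adjusted p was 0.0483 and 0.0190. For Wnt3 it was 0.0552 to 0.134 without HiMed 1, HiMed 3, Low 1, Low 2, Low 3, MedLow 1, MedLow 2 or MedLow 3 and 0.332 by limma on TPM + 1, and its log2 fold change was -8.22 without HiMed 2. For Wnt10b the adjusted p was 0.0588 without MedLow replicate 1, and its log2 fold change was -4.44 without HiMed replicate 3. Among receptors, Fzd1 rose by 0.89 and Lrp5 fell by 0.41. The antagonists went both ways. Notum, an enzyme that strips the lipid Wnt ligands need, had 3.11, 4.53 and 5.45 CPM in MedLow and 57.1, 34.5 and 47.8 in HiMed (log2 fold change 3.41, SE 0.22, adjusted p = 1.1e-06), and Wif1 rose with it. Sfrp1, a decoy that binds Wnt, had 107, 116 and 87.9 CPM in MedLow and 39.7, 36.3 and 32.1 in HiMed (log2 fold change -1.53, SE 0.15, adjusted p = 2.6e-05). Bins were separate for both. Among feedback genes, Nkd1, an intracellular inhibitor, had 3.52, 2.37 and 3.32 CPM in MedLow and 15.7, 10.3 and 11.9 in HiMed (log2 fold change 2.04, SE 0.35, adjusted p = 0.00160), and Znrf3, a ligase that removes Frizzled, rose by 0.49, though limma on TPM + 1 or TPM + 0.1 did not call it (adjusted p up to 0.0894). Axin2, a common target of beta-catenin, had 23.4, 24.9 and 19.6 CPM in MedLow and 21.7, 16.6 and 20.4 in HiMed (log2 fold change -0.21, SE 0.15, adjusted p = 0.444). The transcription factor gene Tcf7 rose by 0.87, and Lef1 was not called (adjusted p = 0.901).

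Fibroblast growth factors act through Fgfr receptors and the MAP kinase cascade, which induces Etv4, Etv5, Spry4 and Dusp6. Of 23 genes of the FGF and EGF families tested, 8 rose and 3 fell (median 0.50). With the replicate block 11 rose and 2 fell. The ligand gene Fgf3 had no count in MedLow and 0.958, 0.328 and 0.761 CPM in HiMed (adjusted p = 6.5e-04), at least 26.9-fold higher against the floor of 3 counts, and was not called by limma on TPM + 1 (0.306). Fgfr1 had 63.7, 57.5 and 63.6 CPM in MedLow and 147, 119 and 128 in HiMed (log2 fold change 1.09, SE 0.10, adjusted p = 9.9e-06). Fgfr2, the receptor of most epithelia, had 455, 471 and 403 CPM in MedLow and 269, 295 and 258 in HiMed (log2 fold change -0.69, SE 0.09, adjusted p = 2.1e-04). One receptor was thus higher and the other lower in every HiMed library. Etv4 had 16.9, 17.9 and 19.6 CPM in MedLow and 59.5, 49.2 and 50.8 in HiMed (log2 fold change 1.55, SE 0.15, adjusted p = 1.9e-05), and Spry4 had 4.11, 3.39 and 3.26 CPM in MedLow and 14, 9.08 and 12.2 in HiMed (log2 fold change 1.71, SE 0.21, adjusted p = 1.5e-04). Bins were separate for both. Etv5 and Dusp6 rose by 0.77 and 0.74, and Spry2 by 0.40 (adjusted p = 0.0250, and 0.0599 to 0.112 without HiMed 1, HiMed 3, MedLow 1 or MedLow 3). Of the EGF receptor ligands, Areg rose from 19.9 to 45.5 CPM (log2 fold change 1.20, SE 0.24, adjusted p = 0.00418), while Epgn fell from 6.37 to 2.89 CPM (adjusted p = 0.0447), a call lost with the replicate block (0.0553) and when single libraries were left out (0.0533 to 0.157 without HiMed 1, HiMed 2, HiMed 3, High 2, Low 1, Low 2, Low 3, MedLow 1, MedLow 2 or MedLow 3). Egfr itself fell by 0.43, though limma on TPM + 1 or TPM + 0.1 did not call it (adjusted p up to 0.0560).

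Notch receptors are activated by Delta and Jagged ligands on neighbouring cells and induce Hes and Hey repressors. Of 19 Notch genes tested, 2 rose and 2 fell (median 0.09). With the replicate block 3 rose and 3 fell. The ligand gene Dll1 had 59.1, 60.4 and 53.7 CPM in MedLow and 24.7, 30.2 and 22.7 in HiMed (log2 fold change -1.16, SE 0.16, adjusted p = 3.1e-04) and the receptor gene Notch1 had 645, 614 and 615 CPM in MedLow and 383, 419.7 and 386 in HiMed (log2 fold change -0.66, SE 0.10, adjusted p = 6.1e-04). Of the effectors, Hey1 had 16.3, 11.0 and 12.7 CPM in MedLow and 71.5, 71.2 and 64.9 in HiMed (log2 fold change 2.38, SE 0.17, adjusted p = 2.1e-06). The ligand and receptor were lower, and the effector higher, in all HiMed libraries. Heyl rose from 2.33 to 15.1 CPM (2.69), and Hes1, the effector of many epithelia, was not called (adjusted p = 0.822).

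Of 23 genes of BMP and TGF-beta signalling, 5 rose and 3 fell (median 0.10). With the replicate block 6 rose and 3 fell. Ligands of the family bind paired receptors that signal through Smad proteins. The ligand gene Bmp2 had 88.7, 84.1 and 77.9 CPM in MedLow and 42.5, 45.5 and 44.3 in HiMed (log2 fold change -0.92, SE 0.15, adjusted p = 0.00105) and Bmp3 had 22.9, 20.8 and 20.6 CPM in MedLow and 3.04, 3.45 and 2.75 in HiMed (log2 fold change -2.80, SE 0.35, adjusted p = 1.7e-04). Both were lower throughout HiMed, while Bmp4 and Bmp7 were not called (adjusted p = 0.0714 and 0.0655), although DESeq2 called Bmp7 higher (0.0283). Fst, the secreted antagonist follistatin, had 26.9, 22.5 and 28.3 CPM in MedLow and 115, 71.1 and 107 in HiMed (log2 fold change 1.91, SE 0.16, adjusted p = 8.0e-06). The receptor gene Bmpr1b rose from 4.79 to 14.4 CPM (1.59). Smad6, an inhibitory Smad, and Id3, a target of BMP signalling, rose by 0.95 and 0.63. Tgfb1 rose by 0.53 (adjusted p = 0.00941, and 0.0507 to 0.0549 without HiMed 3 or MedLow 2), and Tgfbi, a matrix protein induced by TGF-beta, fell by 1.32.

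Other members of the Sox family followed no common direction. Of 12 tested, Sox2 included, 3 rose and 2 fell (median 0.04). The SoxD genes Sox5, Sox6 and Sox13 went apart. Sox13 had 24.2, 24.4 and 31.8 CPM in MedLow and 96.4, 79.8 and 98.0 in HiMed (log2 fold change 1.77, SE 0.19, adjusted p = 4.6e-05), and Sox6 had 74.8, 67.2 and 56.3 CPM in MedLow and 32.4, 28.0 and 19.9 in HiMed (log2 fold change -1.31, SE 0.16, adjusted p = 1.3e-04). Sox5 rose from 2.05 to 12.9 CPM (2.65), although limma on TPM + 1 or TPM + 0.1 did not call it (adjusted p up to 0.0674). Sox10, a neural crest factor, had 0.463, 0.242 and 0.421 CPM in MedLow and no count in HiMed, at least 16.8-fold lower against the floor of 3 counts, and was not called by limma on TPM + 1 (0.216). Sox4, Sox7, Sox9 and Sox21 were not called, but with the replicate block Sox4 was higher and Sox7 lower (adjusted p = 0.00852 and 0.0285). The core of the SOX motif, ACAATG on either strand, was in the 250 bases before the start of 7.96% of all tested genes with an entry, 8.99% of genes called higher and 7.58% of genes called lower.

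Genes listed for suprabasal keratinocytes, cells that have left the basal layer, changed in both directions. Of 20 genes in this list, 4 rose and 3 fell (median -0.22, and 0.06 without HiMed replicate 1). Krt17, a keratin of hair follicle and activated epithelium with values above, was among those that rose. With the replicate block 5 rose and 7 fell. Without HiMed replicate 3 or MedLow replicate 2 the number that rose was 2, and without HiMed replicate 2 the number that fell was 6. Krt13, a keratin of the oral suprabasal layers, had 13850.5, 15276 and 14321 CPM in MedLow and 3585, 11744 and 8225 in HiMed (log2 fold change -0.88, SE 0.31, adjusted p = 0.0786), and it was called with the replicate block (adjusted p = 0.00805), without HiMed replicate 2 (0.0116) and with no count filter (0.00682). Krt4, its partner, had 10134, 8576 and 9712 CPM in MedLow and 3639.8, 10727 and 8259.8 in HiMed (log2 fold change -0.33, SE 0.27, adjusted p = 0.520). Krt4 was not called under any alternative run. Without HiMed replicate 1 the log2 fold change was 0.0023 for Krt4 and -0.54 for Krt13. Krt16, a keratin of activated epithelium, had 1285, 1564 and 1462 CPM in MedLow and 317, 585 and 636 in HiMed (log2 fold change -1.49, SE 0.24, adjusted p = 9.4e-04). Mal, a membrane protein of apical sorting, had 14.4, 17.3 and 44.3 CPM in MedLow and 74.2, 118 and 190.3 in HiMed (log2 fold change 2.33, SE 0.42, adjusted p = 0.00219; 3.01 without MedLow replicate 3). Both were separate between bins. Ovol1, a factor that takes keratinocytes out of proliferation, fell by 0.81. The desmosomal cadherin gene Dsg1a fell by 1.17 (adjusted p = 0.0358, and 0.0753 to 0.131 without HiMed 1, HiMed 3, MedLow 2 or MedLow 3, and up to 0.111 with robust estimation or limma on TPM), whereas Dsg3 and Dsc2 rose by 0.39 and 0.47. For Dsg3 the adjusted p was 0.0143, and 0.0581 to 0.0802 without HiMed 3 or MedLow 2. For Dsc2 it was 0.0235, and 0.0506 to 0.0837 without HiMed 2, HiMed 3, MedLow 1, MedLow 2 or MedLow 3.

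Of 19 genes of the cornified envelope and filiform papilla, 3 rose and 2 fell (median 0.25). With the replicate block 5 rose and 4 fell, and without HiMed replicate 1 the counts were 4 and 1. Without MedLow replicate 3 the number that rose was 6, and without HiMed replicate 3 or MedLow replicate 2 the number that fell was 1. Sprr1a, a small proline-rich envelope precursor, had 438, 456 and 807 CPM in MedLow and 929, 1633 and 1828 in HiMed (log2 fold change 1.37, SE 0.27, adjusted p = 0.00385). Its relative Sprr2a1 rose from 9.22 to 42.3 CPM (2.20), and Sprr3 was not called (adjusted p = 0.123; 0.00292 with the replicate block). Ivl, involucrin, rose from 9.40 to 19.9 CPM (adjusted p = 0.0439, and 0.0539 to 0.175 without HiMed 2, HiMed 3, High 2, Low 2, MedLow 1 or MedLow 2, and up to 0.0696 by limma on TPM). Flg and Krt76, given above, fell. Lor, encoding loricrin, had 50.6, 135 and 252 CPM in MedLow and 26.1, 139 and 293 in HiMed (log2 fold change 0.07, SE 0.80, adjusted p = 0.977), so the library values spread widely within each bin. The list held proteins of the same end product that rose and others that fell.

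Among 14 serpins and protease inhibitors, 3 rose and 1 fell (median 0.06), with 5 higher without HiMed replicate 1 and 6 with the replicate block. Serpina1e, an antitrypsin gene, had 0.0514, 0.121 and 0.605 CPM in MedLow and 4.25, 6.32 and 14.5 in HiMed (log2 fold change 5.04, SE 0.72, adjusted p = 4.1e-04). Its fold is imprecise since MedLow held few counts: the log2 fold change was 4.35 without HiMed replicate 3 and 6.55 without MedLow replicate 3. Hemidesmosomes anchor basal cells to the basement membrane. Of 15 genes listed for hemidesmosomes and the basement membrane together, 1 rose and 3 fell (median -0.03, and 0.03 with library size only). Itgb1, the shared beta chain of many integrins, had 304, 278 and 312 CPM in MedLow and 539, 425 and 490.2 in HiMed (log2 fold change 0.70, SE 0.09, adjusted p = 1.4e-04). Dst, the plakin dystonin, had 1426, 1439 and 1349.8 CPM in MedLow and 859.6, 724 and 785 in HiMed (log2 fold change -0.83, SE 0.08, adjusted p = 1.6e-05). The bins did not overlap in either gene. Frem2 fell by 1.15 and Itga6, the alpha chain of the hemidesmosomal integrin, fell by 0.35 (adjusted p up to 0.0659 by limma on TPM), while its partner Itgb4 was not called (adjusted p = 0.987).

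All 4 metallothioneins tested, cysteine-rich proteins that bind zinc and copper, were lower in HiMed. Mt1 had 219.9, 254 and 197 CPM in MedLow and 75.1, 91.5 and 71.4 in HiMed (log2 fold change -1.49, SE 0.14, adjusted p = 1.4e-05). Mt2 had 376, 413 and 340.1 CPM in MedLow and 78.2, 105 and 75.5 in HiMed (log2 fold change -2.12, SE 0.21, adjusted p = 2.7e-05). Mt3 had 8.05, 12.1 and 7.95 CPM in MedLow and 0, 0.903 and 0.670 in HiMed (log2 fold change -4.16, SE 0.66, adjusted p = 0.00151). No library overlapped for these 3. Mt4, the form of stratified epithelium, had 678, 804 and 610.0 CPM in MedLow and 144, 446 and 238 in HiMed (log2 fold change -1.34, SE 0.34, adjusted p = 0.0183), and its adjusted p was 0.0699 to 0.0790 without HiMed 3 or MedLow 2 and up to 0.0831 by limma on TPM. In the wider list of 16 genes of metal and oxidative stress, 6 rose and 4 fell (median 0.34), the 4 being the metallothioneins, and 2 rose without MedLow replicate 2. With the replicate block 8 rose and 5 fell. Aldh1a1, which makes retinoic acid, rose from 2.33 to 11.5 CPM (log2 fold change 2.32, SE 0.45, adjusted p = 0.00344; 3.03 without MedLow replicate 3) and Gpx2, an epithelial glutathione peroxidase, from 452 to 689 CPM (0.61).

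Metallothionein promoters are known for metal response elements, bound by the zinc sensor Mtf1, and the windows of Mt1 and Mt2 are shown because both genes fell. Capitals mark TGCACNC or TGCGCNC, or a reverse complement, in the 250 bases before the start (RefSeq table, build GRCm38.p6). Mt1 lies at chr8:94178839-94179088 (plus strand) and Mt2 at chr8:94172368-94172617 (plus strand).
Mt1: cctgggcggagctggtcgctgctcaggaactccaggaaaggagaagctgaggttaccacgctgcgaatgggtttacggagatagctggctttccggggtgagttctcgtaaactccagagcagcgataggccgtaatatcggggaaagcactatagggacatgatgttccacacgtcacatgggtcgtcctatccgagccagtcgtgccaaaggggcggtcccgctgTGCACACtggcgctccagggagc
Mt2: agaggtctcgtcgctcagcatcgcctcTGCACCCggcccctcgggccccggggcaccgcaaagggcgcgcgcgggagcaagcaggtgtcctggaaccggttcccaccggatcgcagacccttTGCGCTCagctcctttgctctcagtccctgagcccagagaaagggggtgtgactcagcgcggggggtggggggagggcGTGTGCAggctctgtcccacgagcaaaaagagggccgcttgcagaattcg

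Mt2 held 3 matches and Mt1 held 1. In all, 3 of the 4 metallothionein genes had the element in this window (75.0%), against 33.5% of all tested genes with an entry, 36.3% of those called higher and 34.7% of those called lower.

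Of 15 glycolysis genes, 5 fell and none was called higher by edgeR or DESeq2 (0 at an unadjusted p below 0.05), with a median of -0.28. The number that fell was 3 without HiMed replicate 1, HiMed replicate 3, MedLow replicate 2 or MedLow replicate 3, and 8 without HiMed replicate 2, with the replicate block or with DESeq2. Slc2a1, the glucose transporter GLUT1, had 437, 390.0 and 397 CPM in MedLow and 215, 252 and 254 in HiMed (log2 fold change -0.76, SE 0.09, adjusted p = 1.2e-04). Pfkp, a phosphofructokinase, had 159.6, 166 and 184 CPM in MedLow and 90.3, 110.1 and 89.6 in HiMed (log2 fold change -0.81, SE 0.13, adjusted p = 0.00103). Both were lower in all HiMed libraries. Gapdh was not called (adjusted p = 0.376).

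Of 16 genes of cholesterol synthesis, 1 rose, the sterol demethylase gene Cyp51 (adjusted p = 0.0393, and 0.0521 to 0.164 without HiMed 2, HiMed 3, Low 3, MedLow 1, MedLow 2 or MedLow 3, and up to 0.146 by limma on TPM; median 0.06). None of the 13 mitochondrially encoded genes passed edgeR's or DESeq2's test, and 0 had an unadjusted p below 0.05, while 1 was called lower without MedLow replicate 2. Of 18 immediate early and dissociation stress genes, which respond to handling of the tissue, Socs3 and Dnajb1 fell (-0.88 and -0.63) and 16 were not called (median -0.12). Fos, the best known of them, had 1909.6, 1696 and 1699 CPM in MedLow and 1971, 1752 and 2144 in HiMed (log2 fold change 0.15, SE 0.11, adjusted p = 0.481), with overlap between bins. None of 17 interferon and antigen presentation genes passed edgeR's main test (median 0.20), and 1 of them had an unadjusted p below 0.05. DESeq2 called 1 lower, and so did edgeR with the replicate block.

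Markers of cells other than the sorted epithelium were measured over whole lists, and their part in the results was not tested. Summed levels of 15 von Ebner gland markers, the minor salivary glands that open into the papilla's trench, were 563 to 1192 CPM in MedLow and 1304 to 2346 in HiMed. Of 10 tested, 2 rose and 1 fell, with a median log2 fold change of -0.06, and 2 fell with the replicate block. Of the 15, 4 were at 0 in all 6 libraries. Ltf, the iron binding protein lactoferrin, made up most of each sum and the rise in it, so the sums do not describe the list. It had 399, 387 and 921 CPM in MedLow and 1256, 1597 and 2258 in HiMed (log2 fold change 1.58, SE 0.34, adjusted p = 0.00682). Aqp5 and Muc5b, at no more than 8.19 CPM on average, were the others called. For Aqp5 the adjusted p was 0.0301, and 0.0698 to 0.115 without HiMed 2, HiMed 3, MedLow 1, MedLow 2 or MedLow 3 and 0.183 with the 6 libraries alone. For Muc5b it was 0.0330, and 0.0502 to 0.203 without HiMed 1, HiMed 2, Low 2, Low 3 or MedLow 2 and 0.0956 by DESeq2, with log2 fold changes from -3.05 (without HiMed 3) to -1.4 (without MedLow 2) beside -2.24.

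The 11 fibroblast markers summed to 115 to 200.0 CPM in MedLow and 49.6 to 53.6 in HiMed, chiefly through Dcn, the matrix proteoglycan decorin, which had 144, 185 and 99.0 CPM in MedLow and 36.1, 32.4 and 33.6 in HiMed (log2 fold change -2.07, SE 0.35, adjusted p = 0.00151). Col1a1, a defining fibroblast gene, averaged 0.397 and 0.800 CPM, and 2 of the 11 markers were at 0 in all 6 libraries. Thy1 fell from 6.29 to 0.534 CPM (-3.55; -4.17 without HiMed replicate 1; adjusted p = 0.125 by limma on TPM + 0.1), and Col5a1 rose from 6.89 to 13.7 CPM (adjusted p = 0.0420, and 0.0503 to 0.154 without HiMed 2, HiMed 3, High 1, High 2, MedLow 1 or MedLow 2, and up to 0.138 by limma on TPM).

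Endothelial markers summed to 10.7 to 13.5 CPM in MedLow and 26.2 to 42.7 in HiMed, with Tek, the angiopoietin receptor, rising from 3.69 to 17.8 CPM (log2 fold change 2.27, SE 0.38, adjusted p = 0.00144). Pecam1, a defining endothelial gene, averaged 0.629 and 1.33 CPM. Leukocyte markers summed to 6.63 to 15.5 CPM in MedLow and 25.2 to 58.8 in HiMed, chiefly through Lyz2, a lysozyme, which rose from 11.0 to 35.9 CPM (adjusted p = 0.0253, and 0.0817 to 0.135 without HiMed 3, MedLow 1 or MedLow 2, and 0.0933 with robust estimation). Ptprc, the pan-leukocyte marker, averaged 0.0565 CPM in MedLow and was at 0 in HiMed, and 7 of the 13 leukocyte markers were at 0 in all 6 libraries. Neuron and Schwann cell markers summed to 60.9 to 78.6 CPM in MedLow and 45.2 to 49.9 in HiMed, with Mbp, a myelin protein gene also transcribed outside the nervous system, falling by 0.71. Merkel cell markers, Sox2 among them, summed to 137 to 143 CPM in MedLow and 213 to 235 in HiMed: Krt20 rose by 1.96, Piezo2 fell by 1.70 (adjusted p = 0.0516 by limma on TPM + 0.1) and the defining factor Atoh1 was at 0 in 5 of the 6 libraries. Muscle, melanocyte and erythroid lists summed to at most 6.12 CPM in any library. Of their 9 tested members edgeR and DESeq2 called none, and 1, a melanocyte gene, had an unadjusted p below 0.05.

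High and Low share no library with the middle bins, but both contrasts came from 1 fit, and departures from the bin mean correlated between same-numbered libraries of different bins (above 0.1 in 15 of 18 pairs), so the contrasts are not independent. High against Low called 3512 genes higher (20.1%) and 3702 lower (21.2%) in High. Of the 1286 genes higher in HiMed, 1152 (89.6%) were also higher in High, which is 32.8% of the 3512, and 19 were lower. Of the 1066 lower genes, 961 (90.2%) were also lower in High, 26.0% of the 3702, and 10 were higher. The remaining 115 and 95 were not called there.

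The step from MedLow to HiMed was then set against the mean of the other steps, Low to MedLow and HiMed to High, within the same fit. HiMed and MedLow libraries enter both the middle step and the outer steps, with opposite sign. A deviation in either bin therefore shifts both parts and enlarges the difference. The difference is largely the HiMed against MedLow contrast itself, so overlap with its calls was built in. The difference was called for 141 genes with a more positive middle step (0.809%) and 52 with a more negative one (0.298%), and 126 and 45 of these were also called in HiMed against MedLow in that direction. The counts were 264 and 127 with the replicate block, 63 and 25 without HiMed replicate 1, 47 and 24 without HiMed replicate 3, 56 and 17 without MedLow replicate 1 and 37 and 17 without MedLow replicate 2. Without MedLow replicate 3 there were 84 more positive, without Low replicate 3 there were 30 more negative and without High replicate 3 there were 79.

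Fbn2 had the largest positive difference, 5.74 (SE 0.39, adjusted p = 2.7e-05) on the log2 scale. It averaged 1.53 ± 0.0604 and 38.3 ± 9.59 CPM in the middle bins, beside 16.3 ± 3.48 in Low and 89.5 ± 21.6 in High, so that MedLow was its lowest bin. Notum also had its minimum in MedLow, with 4.36 ± 1.18 and 46.4 ± 11.3 CPM in the middle bins, beside 28.1 ± 3.77 in Low and 489 ± 83.0 in High and a difference of 3.06 (SE 0.34, adjusted p = 8.7e-04). Lgr6 averaged 45.9 ± 7.97 and 304 ± 53.9 CPM in the middle bins, beside 67.7 ± 9.91 in Low and 661 ± 18.9 in High, with a difference of 2.44 (SE 0.24, adjusted p = 5.0e-04). In these 3 genes the mean was higher in HiMed than in MedLow and higher again in High. Wif1, with 24 ± 4.48 and 323 ± 71.0 CPM in the middle bins, beside 7.29 ± 2.44 in Low and 255 ± 64.6 in High, and Etv4, with 18.2 ± 1.35 and 53.2 ± 5.57 CPM in the middle bins, beside 17 ± 1.64 in Low and 34.2 ± 6.98 in High, had their highest means in HiMed and differences of 3.07 (SE 0.39, adjusted p = 0.00207) and 1.82 (SE 0.23, adjusted p = 0.00207). The HiMed and High libraries of Wif1 overlapped. Ptch1 shared that order, with 68.5 ± 12.3 CPM in Low and 566 ± 123 in High, and a difference of 1.33 (SE 0.24, adjusted p = 0.0203), for which the adjusted p was 0.0603 to 0.116 without HiMed 1, HiMed 3, MedLow 1 or MedLow 2.

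Other genes with a more positive middle step were Car2 (3.27; without MedLow replicate 2 the adjusted p was 0.0608), Lmod2, an actin nucleator gene (3.89; without HiMed replicate 3 it was 0.0575), Fst (1.95), Fgfr1 (1.65) and Hes6 (1.63). Plce1 differed by 3.18 (adjusted p of 0.0586 to 0.0690 without MedLow 1 or MedLow 2), and Tek by 3.08 (adjusted p of 0.0700 to 0.136 without HiMed 1, HiMed 3, MedLow 2 or MedLow 3). Without MedLow replicate 1 the difference was 4.05 for Car2 and 4.51 for Lmod2, without MedLow replicate 2 it was 3.28 for Lmod2 and without MedLow replicate 3 it was 3.99 for Plce1.

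In the negative direction, Tchh averaged 1306 ± 955 and 26.4 ± 3.37 CPM in the middle bins, beside 2162 ± 837 in Low and 19.9 ± 5.23 in High, with a difference of -5.06 (SE 0.74, adjusted p = 0.00558) that was -3.97 without MedLow replicate 2. Its means were high in Low and MedLow and low in HiMed and High. Gas1, with 89.6 ± 1.33 and 22.8 ± 7.47 CPM in the middle bins, beside 143 ± 13.6 in Low and 89.4 ± 23.2 in High, was lowest in HiMed and differed by -2.62 (SE 0.34, adjusted p = 0.00254). Thsd4, a protein of the extracellular matrix, was lowest there too, with 46.7 ± 7.63 and 15.7 ± 3.02 CPM in the middle bins, beside 76.6 ± 6.23 in Low and 96.9 ± 19.2 in High and a difference of -2.53 (SE 0.27, adjusted p = 7.2e-04), although limma on TPM + 1 or TPM + 0.1 did not call it between the middle bins (adjusted p up to 0.130). Peg3 differed by -4.03 (SE 0.67, adjusted p = 0.0116), and without MedLow replicate 2 its adjusted p was 0.0534. Its difference was -4.93 without HiMed replicate 2 and -3.26 without HiMed replicate 3. Tbc1d9, a gene of vesicle traffic, differed by -2.29 (SE 0.30, adjusted p = 0.00251), and limma on TPM did not call it between the middle bins (adjusted p up to 0.125). Bmp2 had 147 and 155 CPM in the outer bins against 83.6 and 44.1 in the middle ones, and differed by -1.42 (SE 0.24, adjusted p = 0.0116), with an adjusted p of 0.0508 to 0.0550 without HiMed 3, MedLow 1 or MedLow 2.

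**Figure D5:**
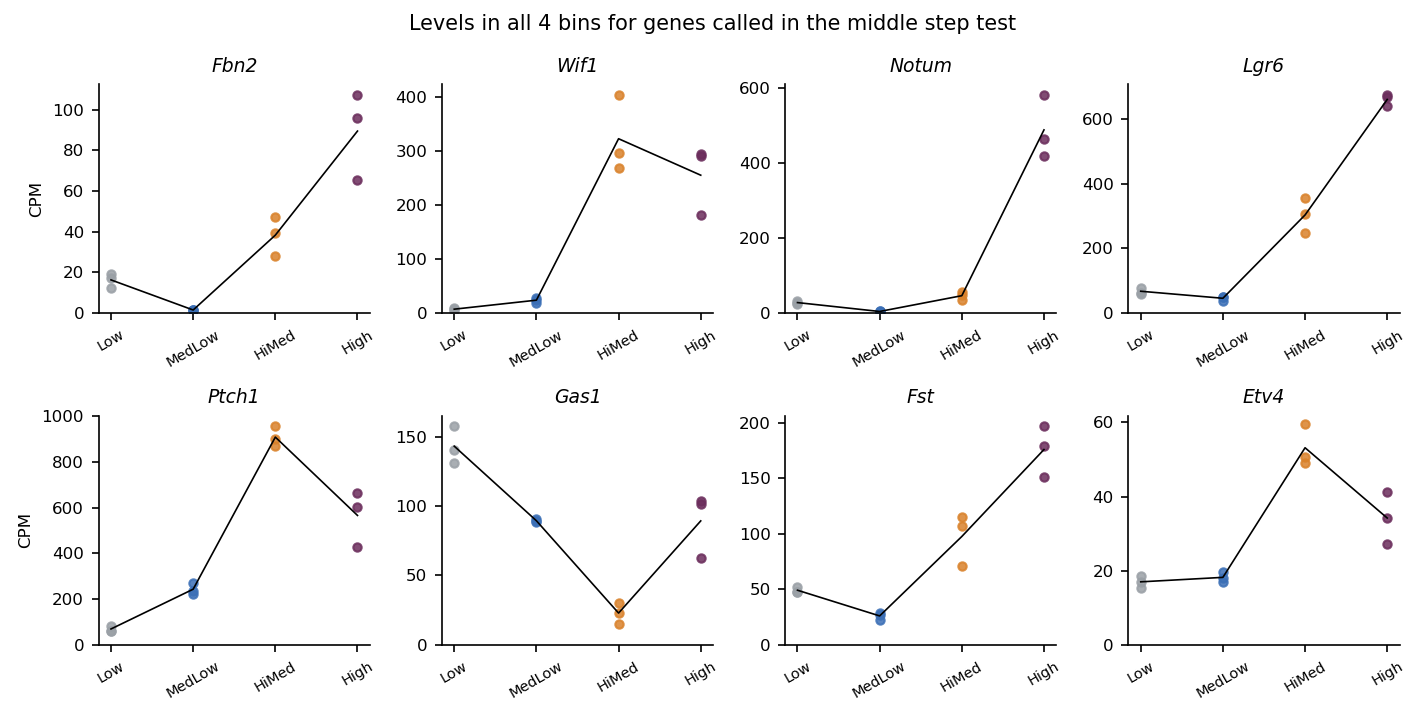
CPM per library in all 4 bins for 8 genes called in the test of the middle step, with the line through the bin means. Fbn2, Notum, Lgr6 and Fst have their lowest mean in MedLow, Wif1, Ptch1 and Etv4 their highest in HiMed, and Gas1 its lowest in HiMed.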

How the data were processed

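RNA with poly(A) tails was sequenced from 12 libraries, 3 for each of 4 bins, and the 6 HiMed and MedLow libraries carry the results. Per the submitters' processing notes, Salmon 1.4.0, DESeq2 1.28.1 and the mouse build mm39 were used. No source used here gives the role of DESeq2, the annotation, the strand setting or the summing to gene symbols. The authors deposited 2 tables: Salmon's estimated counts per gene symbol (52670 symbols, 8.24 to 13.0% of values in a library not whole) and TPM values. Estimated counts were rounded to whole numbers and fitted with edgeR 4.0.16 in R 4.3.3 (TMM scaling, filterByExpr with a minimum count of 10, quasi-likelihood model with 1 term per bin). The 17432 genes tested left out 35238 symbols that held 0.0340% of counts. The fit's common coefficient of biological variation was 0.366. A standard error is the size of the log2 fold change divided by the square root of its F statistic. A bin without counts for a gene was given a floor of 3 counts in all, 0.0254 CPM in MedLow and 0.0223 in HiMed, which covers counting error only. The tests were tried on simulated counts first.

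The members and the gene lists (33 lists, 473 symbols, 472 in the files, 422 tested, 51 not tested) were chosen with earlier results of these data known. Genes were named by rule: Sox2 and eGFP, up to 10 called genes per direction by fold (libraries not overlapping, mean of at least 10 CPM in the higher bin, no predicted-gene symbol), up to 5 by CPM difference, up to 4 called members per list and direction, up to 5 per direction from the test of the middle step, and Krt8, Krt5, Krt14, Krt15, Krt13, Krt4, Lgr5, Lgr6, Shh, Prox1, Mki67, Trpm5, Pou2f3, Entpd2, Ptch1 and Trp63, with other list members given as values. A few called list members are counted but not reported here by name. Alternatives were RLE or no scaling, DESeq2 1.42.0, other filters, limma 3.58.1 on the deposited TPM values + 1 or + 0.1, a replicate block, the 6 libraries alone and leaving out each library. Robust estimation was added after seeing the data. Libraries of one bin differed beyond counting noise (chi-square per degree of freedom 26.6 to 77.3), so none is a copy of another.

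Replicate numbers 1 to 3 recur in each bin. The labels do not say whether a number marks the same pool of mice. Across 9650 genes, departures from the bin mean correlated at 0.229, 0.118 and 0.411 between HiMed and MedLow libraries of the same number. In the other pairings the correlations lay between -0.321 and -0.0118. Departures within a bin cancel, so positive values for the same number push the other pairings negative, and these are not separate evidence. On the same-number correlations, libraries that share a number count as paired. The main test has no replicate block, so its standard errors and calls leave this pairing out. The fit with the block called 1486 genes higher and 1275 lower. It is an alternative, given beside some of the results it changes. Promoter sequences came from a RefSeq table of build GRCm38.p6, which held an entry for 12100 of the genes tested.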

Additional observations from a re-analysis of the deposited data

How the results depend on the processing

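Counts of calls in HiMed against MedLow were within 1.5 times the main 1286 higher and 1066 lower under RLE scaling, library size only, DESeq2, both other filters, the replicate block, the 6 libraries alone with or without the block, and robust estimation, which was chosen after seeing the data. Limma called 423 lower genes on TPM + 1 and 417 on TPM + 0.1, and a 2-fold minimum left 601 and 271. Leaving out single libraries gave 778 to 1327 higher and 592 to 1194 lower. For the middle step, with 141 and 52 calls, DESeq2 gave 388 and 184, no count filter 336 and 157, the replicate block 264 and 127, TPM + 1 gave 34 and 15 and TPM + 0.1 gave 25 and 9. Leaving out single libraries gave 37 to 165 and 17 to 79. The cause of these differences was not tested. With the replicate block, 1486 genes were higher and 1275 lower, and among 446 genes named by rule or tested in a list it added 36 calls to 170 and ended 1, that of Epgn. Of the 170, 107 were called under every alternative run and 63 were not under at least 1. None changed direction. With 3 libraries a bin, and 1 library deciding some calls, small changes were at the limit of detection.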
